A study of Mus musculus with 9 samples.

Results

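The transcripts of 10 genes that carry copper into, through and out of the cell were followed in MC38 cells, a mouse colon carcinoma line. The genes were taken by symbol from the deposited expression table: Slc31a1, Slc31a2, Atp7a, Atp7b, Atox1, Ccs, Cox17, Sco1, Sco2 and Commd1. All 10 were among the 16509 genes of the table, and all 10 passed the filter on low counts that left 11949 genes for testing. Messenger RNA had been sequenced in 9 libraries of 3 groups, with 3 replicates each, to compare control, copper-cystine-treated and nanodrug-treated tumor cells. Ctrl cells are labelled as treated with DMSO, whereas the methods of the study name PBS. Cu-Cys cells received copper chloride with cystine. Cadict cells received a nanodrug in which a copper-cystine coordination complex carries glucose oxidase and GE11, a peptide that binds the EGF receptor. Dose and time of treatment are not given for these libraries, and all cells are of a single established line. The methods of the study speak of biological replicates and repeated in vitro experiments in general, and the labels do not say how the 3 libraries of a group were cultured, so p-values measure the spread between these libraries.

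Free copper ions are toxic, so cells pass copper from protein to protein. CTR1, the product of Slc31a1, takes up reduced copper at the plasma membrane, and its relative CTR2 (Slc31a2) sits mainly in endosomes and lysosomes. In the cytosol, ATOX1 hands copper to the P-type ATPases ATP7A and ATP7B, which load secreted enzymes in the Golgi and expel copper when it is in excess, while CCS loads the superoxide dismutase SOD1. In the space between the mitochondrial membranes, COX17 passes copper to SCO1 and SCO2, which build a copper site of cytochrome c oxidase. COMMD1 belongs to an endosomal sorting complex that keeps the copper ATPases on their routes.

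Promoter sequence is shown for 3 of these genes because 2 of them, Atp7a and Atox1, were called higher in Cadict cells while Slc31a1, the importer, changed by less than the fold limit. The windows are the 250 bases before the annotated start in RefSeq (build GRCm38.p6), printed 5′ to 3′ along the gene's own strand. Slc31a1 lies at chr4:62360451-62360700 on the plus strand, Atp7a at chrX:106026974-106027223 on the plus strand and Atox1 at chr11:55461209-55461458 on the minus strand. Capitals mark 2 motifs searched on both strands: TGCNCNC, a looser form of the core of the metal response element that the zinc-sensing factor MTF1 binds, and GGGCGG, the GC box. The matches did not overlap each other.
Slc31a1: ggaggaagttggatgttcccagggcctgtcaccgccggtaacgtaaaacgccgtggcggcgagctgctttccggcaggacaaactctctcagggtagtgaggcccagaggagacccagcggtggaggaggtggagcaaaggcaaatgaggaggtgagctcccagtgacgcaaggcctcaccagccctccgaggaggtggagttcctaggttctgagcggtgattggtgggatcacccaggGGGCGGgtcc
Atp7a: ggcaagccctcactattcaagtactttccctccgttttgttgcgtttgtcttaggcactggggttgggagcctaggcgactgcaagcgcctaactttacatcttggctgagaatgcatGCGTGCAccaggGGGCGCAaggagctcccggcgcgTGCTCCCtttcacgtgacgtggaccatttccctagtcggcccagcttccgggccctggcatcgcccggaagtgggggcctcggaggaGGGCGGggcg
Atox1: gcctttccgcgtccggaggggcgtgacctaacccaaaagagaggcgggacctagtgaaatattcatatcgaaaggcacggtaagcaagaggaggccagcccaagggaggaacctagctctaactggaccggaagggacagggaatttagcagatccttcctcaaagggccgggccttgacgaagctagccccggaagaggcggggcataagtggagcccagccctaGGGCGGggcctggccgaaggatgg
In Atp7a, TGCNCNC matched at 3 places, which begin 132, 120 and 97 bases before the start, and GGGCGG matched at 10 bases before it. Slc31a1 and Atox1 each held GGGCGG at 1 place, 10 and 24 bases before the start, and no TGCNCNC. Of 32851 promoter windows of this length in the table, 44.4% held TGCNCNC and 32.7% held GGGCGG, so a match is common. Among the 8 genes with a window in the table, Sco2 held TGCNCNC at 2 places, and Slc31a2, Atp7b, Sco1 and both windows of Commd1 held it at 1 place each. Sco1 and Sco2 also held GGGCGG at 1 place each, 182 and 220 bases before the start, and Slc31a2, Atp7b and Commd1 did not hold it.

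The libraries were alike in depth, with 17905771 to 18293056 expected counts, but not in composition. The 100 most abundant genes took 17.3% of counts in Ctrl, 18% in Cu-Cys and 30.4% in Cadict libraries (means of 3). TMM scaling, which sets libraries to a common level over most genes, therefore gave factors of 1.262 to 1.274 in Ctrl, 1.206 to 1.209 in Cu-Cys and 0.6395 to 0.6654 in Cadict. Scaling by library totals instead moved the median log2 fold change of all genes by -0.952 in Cadict against Ctrl, deposited TPM moved it by -1.001 and DESeq2 size factors by 0.119. In Cadict against Cu-Cys the first 2 moved it by -0.881 and -0.858, so every change below is relative to the bulk of transcripts. No spike-in was described, and in bulk RNA fewer cells and less RNA per cell cannot be told apart. Cadict replicate 2 stood apart from its group: its counts differed from those of replicates 1 and 3 by a chi-square of 13.7 and 21.7 per gene, against 1.88 to 4.43 for the other replicate pairs. Among epithelial markers in this colon line, Krt8, Krt18, Epcam and Vil1 were at or near 0 (at most 0.87, 0.15, 0.17 and 0.14 TPM), while Cdh1 had 2.21 to 2.75 TPM in Ctrl and 2.39 to 2.92 in Cadict, and Krt19 had 1.72 to 3.2 in Ctrl and 8.36 to 9.31 in Cadict. Lgals4 went the other way, with 0.61 to 1.47 TPM in Ctrl and 0 to 0.27 in Cadict. The summed TPM of 7 measured epithelial genes of 8 was 4.83 to 6.86 in Ctrl, 3.75 to 4.43 in Cu-Cys and 11.6 to 13.5 in Cadict, there mostly from Krt19. The summed TPM of all 4 fibroblast genes listed was 163 to 184 in Ctrl, 62 to 66.5 in Cu-Cys and 6.31 to 8.13 in Cadict, mostly from Col3a1. The summed TPM of 4 measured leukocyte genes of 5 was 7.08 to 7.89 in Ctrl, 4.55 to 5.72 in Cu-Cys and 15 to 18.2 in Cadict, nearly all from Cd68, while Ptprc, which defines leukocytes, reached at most 0.07.

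In Cadict cells, an exporter gene and 3 chaperone genes stood higher than in Ctrl relative to the bulk of transcripts. The exporter gene Atp7a, the chaperone genes Atox1 and Ccs, and Cox17 were called higher, by 2.07, 2.63, 2.04 and 4.22 times. Atp7b, the second copper ATPase gene, was called lower, by 2.93 times. A gene was called when it differed 2-fold or more with an edgeR adjusted p no greater than 0.001. Thus 4 of 10 members were called higher, where 20.7% of all tested genes were, and 1 of 10 was called lower, where 27.1% of all tested genes were. At an adjusted p no greater than 0.05 and without a fold limit, 5 members rose (40.6% of all genes did) and 4 fell (47.1% did). The Ctrl and Cadict libraries did not overlap for 8 of 10 members, against 87.5% of all genes. The members' median log2 fold change was 0.05, beside -0.13 over all tested genes. At the looser threshold and for overlap, the members' shares lie near those of all genes. Atp7a, Atox1 and Ccs, however, turned to -0.23, -0.0032 and -0.29 on the scale of log2(TPM + 1), which understates changes of low genes and where Cox17 stayed higher at 0.65 and Atp7b stayed lower at -0.70.

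**Figure D1:**
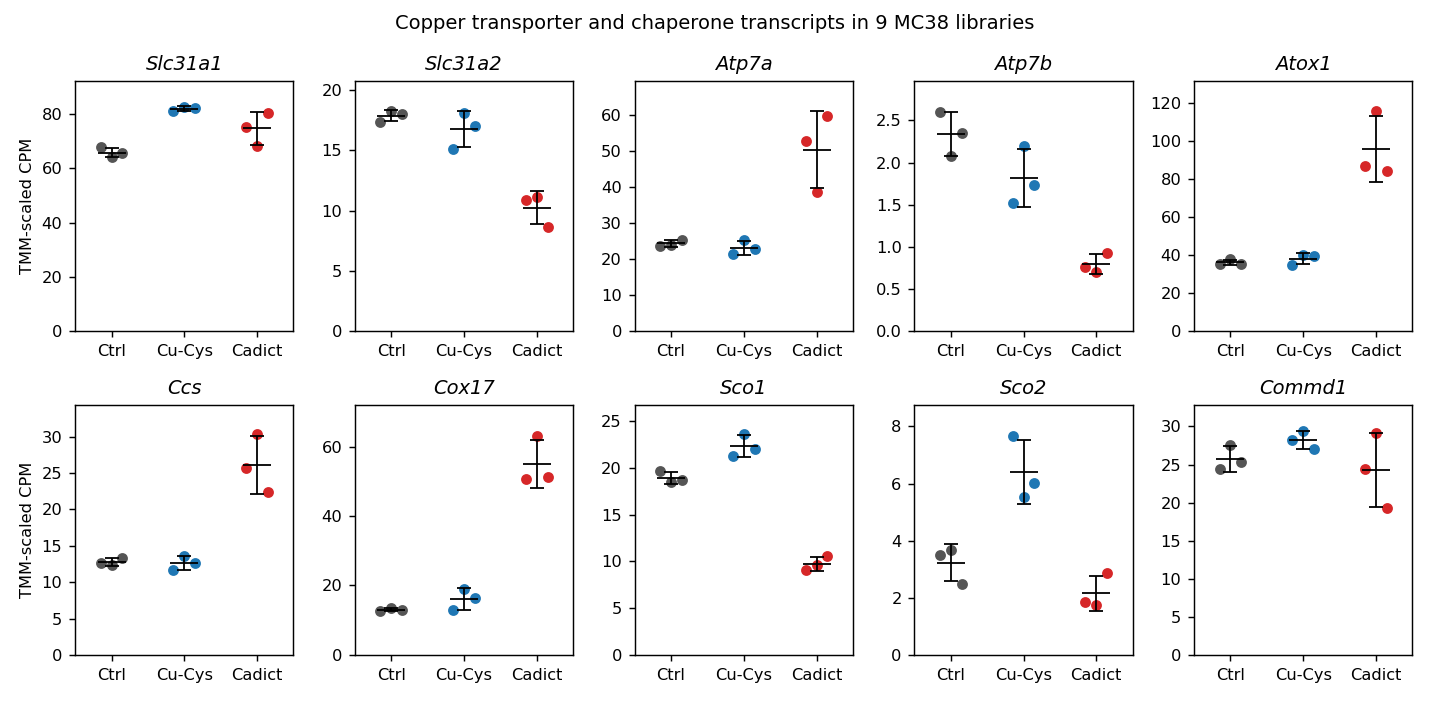
Level of each of the 10 transcripts in the 9 libraries, as TMM-scaled CPM (y axis, from 0), by group (x axis). Points are libraries, and the bar and whiskers are the mean and SD of 3 replicates. All 3 Cadict points lie above all Ctrl points for Slc31a1, Atp7a, Atox1, Ccs and Cox17, and below them for Slc31a2, Atp7b and Sco1. Of the genes named as above, only Cox17 was so on the TPM scale.

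**Figure D2:**
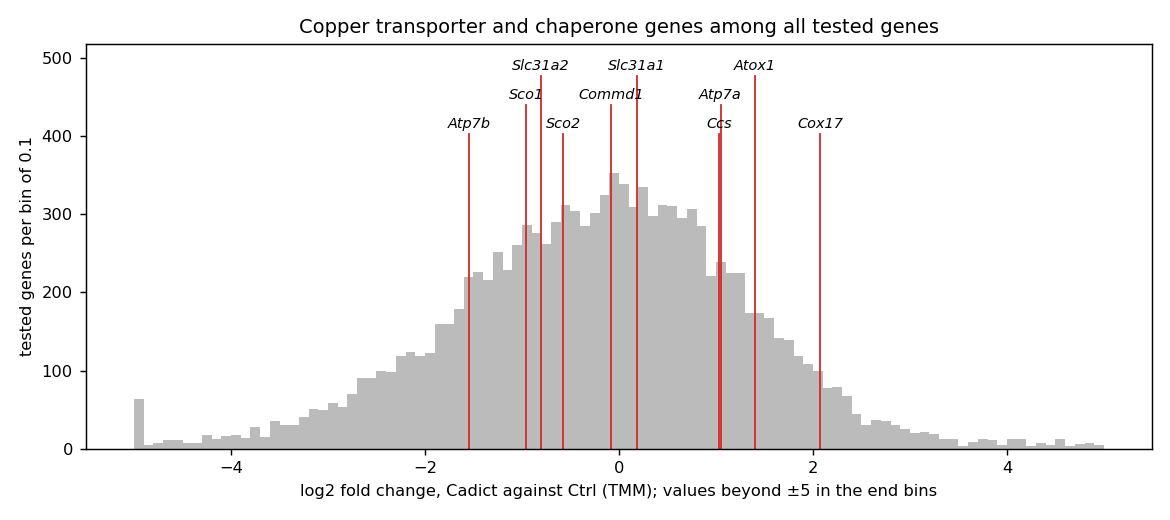
Number of tested genes (y axis) by log2 fold change of Cadict against Ctrl after TMM scaling (x axis, bins of 0.1), with a red line at each of the 10 members. The members spread across the distribution, from Atp7b at -1.55 to Cox17 at 2.08.

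The importer Slc31a1 was an abundant transcript that changed little. Its TMM-scaled level was 67.7, 64.2 and 65.5 CPM (counts scaled to a common library size) in Ctrl replicates 1 to 3, 81.0, 82.6 and 82.4 CPM in Cu-Cys and 75.4, 68.3 and 80.4 CPM in Cadict. Both treatments thus lay above every Ctrl library, with Cu-Cys the highest. The log2 difference was 0.18 ± 0.06 (SE, edgeR adjusted p = 0.00984) in Cadict and 0.32 ± 0.06 (edgeR adjusted p = 0.000449) in Cu-Cys. The Cadict value sat at percentile 58.5 of all tested genes and turned to -0.77 with library totals and -1.08 with TPM. It did not pass 0.05 with at least 10 counts in every library (edgeR adjusted p = 0.0685), with no low-count filter (edgeR adjusted p = 0.154), or without Ctrl replicate 2 or Cadict replicate 3 (edgeR adjusted p = 0.0513 and 0.059). In counts, Slc31a1 had 1482 to 1565 in Ctrl and 784 to 957 in Cadict libraries of like depth.

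Slc31a2, for the endosomal relative CTR2, fell in Cadict cells by a factor of 1.75. Its level was 17.3, 18.3 and 18.1 CPM in Ctrl, 15.1, 18.1 and 17.0 CPM in Cu-Cys and 10.9, 11.2 and 8.65 CPM in Cadict. The Cadict libraries lay below all 6 others, and the Cu-Cys libraries overlapped Ctrl. The log2 difference from Ctrl was -0.81 ± 0.10 in Cadict (SE, edgeR adjusted p = 2.17e-06), short of the fold limit, and -0.09 in Cu-Cys (95% interval -0.28 to 0.09, edgeR adjusted p = 0.394).

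The copper ATPase genes went in opposite directions in Cadict cells. Atp7a, for the ATPase used by most tissues, measured 23.8, 24.0 and 25.5 CPM in Ctrl, 21.5, 25.3 and 23.0 CPM in Cu-Cys and 52.8, 38.7 and 59.9 CPM in Cadict. Every Cadict library was above the 6 others, but they ranged widely, with replicate 2 the lowest. The log2 difference of Cadict from Ctrl was 1.05 ± 0.12 (SE, edgeR adjusted p = 4.34e-07). That value rested near the fold limit: without Cadict replicate 3 it was 0.90 and no longer called, and without replicate 2 it was 1.20. With library totals it was 0.10 (edgeR adjusted p = 0.456). Atp7b, the ATPase known from liver and from Wilson disease, was scarce throughout, at 2.60, 2.08 and 2.36 CPM in Ctrl, 1.52, 2.20 and 1.73 CPM in Cu-Cys and 0.765, 0.697 and 0.924 CPM in Cadict. The Cadict values stem from 9, 8 and 11 expected counts, against 60, 48 and 54 in Ctrl, with no overlap. The log2 difference was -1.55 ± 0.26 (SE, edgeR adjusted p = 3.74e-05).

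The cytosolic chaperone genes were both called higher in Cadict. Atox1, which serves the ATPases, measured 35.6, 37.8 and 35.5 CPM in Ctrl, 34.7, 40.2 and 39.4 CPM in Cu-Cys and 87.0, 115.5 and 84.3 CPM in Cadict. The lowest Cadict library was above the highest of the 6 others, and replicate 2 was the highest. Atox1 had a log2 difference from Ctrl of 1.40 ± 0.10 (SE, edgeR adjusted p = 1.91e-09), at percentile 86 of all genes. Ccs, which serves SOD1, measured 12.6, 12.4 and 13.3 CPM in Ctrl, 11.7, 13.6 and 12.7 CPM in Cu-Cys and 25.8, 30.3 and 22.3 CPM in Cadict. Its log2 difference was 1.03 ± 0.10 (SE, edgeR adjusted p = 9.77e-08), barely past the fold limit. Without Cadict replicate 2 the Ccs value was 0.91 and no longer called, and with library totals it was 0.08 (edgeR adjusted p = 0.456), where Atox1 kept 0.44 (edgeR adjusted p = 0.00031).

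The mitochondrial relay split. Cox17, the donor, had the largest change of the 10 members after TMM scaling, while Sco1, an acceptor, fell. Cox17 measured 12.6, 13.5 and 12.95 CPM in Ctrl, 12.97, 19.1 and 16.3 CPM in Cu-Cys and 50.6, 63.0 and 51.3 CPM in Cadict. Its expected counts already showed this, with 292 to 311 in Ctrl and 596 to 723 in Cadict. The log2 difference was 2.08 ± 0.12 (SE, edgeR adjusted p = 8.7e-11), at percentile 93.7 of all genes, and 1.12 with library totals. Sco1 measured 19.6, 18.5 and 18.7 CPM in Ctrl, 21.3, 23.6 and 22.1 CPM in Cu-Cys and 9.09, 9.59 and 10.6 CPM in Cadict. The order Cu-Cys, Ctrl, Cadict held for every library. In Cadict, Sco1 differed from Ctrl by -0.96 ± 0.09 on the log2 scale (SE, edgeR adjusted p = 3.83e-08), just under the fold limit. Sco1 was called lower with at least 10 counts in every library (-1.02), with no low-count filter (-1.04), without Cadict replicate 3 (-1.02) and with library totals (-1.91).

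Sco2, the second acceptor, was highest in Cu-Cys. Its level was 3.50, 3.68 and 2.49 CPM in Ctrl, 7.66, 5.53 and 6.02 CPM in Cu-Cys and 1.87, 1.74 and 2.86 CPM in Cadict. Cu-Cys libraries stood above all others, and Cadict replicate 3 overlapped Ctrl replicate 3. The log2 difference from Ctrl was 0.99 ± 0.17 in Cu-Cys (SE, edgeR adjusted p = 0.000307) and -0.58 ± 0.24 in Cadict (SE, edgeR adjusted p = 0.0377). The Cadict value did not pass 0.05 with DESeq2 size factors (edgeR adjusted p = 0.0911) or in DESeq2's Wald test (adjusted p = 0.15). Nor did it pass without Ctrl replicate 1 or 2 or Cadict replicate 1 or 2 (edgeR adjusted p = 0.0915 to 0.129). Sco2 was called lower with library totals (-1.53, edgeR adjusted p = 1.53e-05) and on the scale of log2(TPM + 1) (-1.50, limma adjusted p = 2.51e-06). Under both, the median of all genes also fell. These values are uncertain because, in GENCODE M21 on GRCm38, Tymp on the same strand shares 68.3% of the Sco2 exon bases and Ncaph2 on the opposite strand shares 66.2%. Reads there are split by the authors' estimate, and whether counting used strand is not given in the sources used here. Tymp had 6.16 to 21.42 expected counts in Ctrl, 14.09 to 18.94 in Cu-Cys and 0 in all Cadict libraries. Ncaph2 had 5486 to 5859 in Ctrl, 4344 to 4768 in Cu-Cys and 1518 to 1633 in Cadict. Summing Sco2 and Tymp, a step added after seeing the data, gave 3.75 ± 0.296 CPM in Ctrl, 7.16 ± 1.21 CPM in Cu-Cys and 2.17 ± 0.615 CPM in Cadict (SD, n = 3), so the order of the 3 means was the same.

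Commd1, for the sorting protein, did not pass the looser threshold in any of the 3 comparisons in the fit used throughout, but passed under some other settings given here. It measured 24.4, 27.6 and 25.3 CPM in Ctrl, 28.2, 29.4 and 27.0 CPM in Cu-Cys and 24.5, 29.1 and 19.3 CPM in Cadict. The groups overlapped, and Cadict spanned the widest range. The log2 difference of Cadict from Ctrl was -0.09 with a 95% interval of -0.32 to 0.15 (edgeR adjusted p = 0.463). Without Cadict replicate 2, which stood apart, it was -0.24 (edgeR adjusted p = 0.0185), and with library totals it was -1.04 (edgeR adjusted p = 5.14e-08).

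Transcript length moved with these changes. The median log2 fold change of Cadict against Ctrl was 0.47 in the quartile of genes with the shortest effective lengths, up to 1550 bases. It was -0.20, -0.37 and -0.40 in the next 3 quartiles. In the shortest quartile 33.2% of genes were called higher and 16.7% lower, and in the longest 13.1% and 30.7%. Cox17, Atox1 and Ccs belong to the shortest quartile, with effective lengths of 119, 188 and 727 bases. Slc31a2, Sco2 and Commd1, which did not rise in Cadict against Ctrl, are in the same quartile. Atp7a, with 7860 bases, and Atp7b, with 6120 bases, are both in the longest quartile and moved in opposite directions. The part of length in these results was not tested.

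The comparison of Cu-Cys with Ctrl asks what copper and cystine do without the nanodrug. None of the 10 members was called in edgeR (4 had an unadjusted p under 0.05), where 0.167% of all genes were called higher and 1.47% lower, and DESeq2's Wald test also called 0. Slc31a1, Sco1 and Sco2 rose at the looser limit of 0.05 (3 of 10, against 22.6% of all genes) and 0 fell (22.4%). They were also the 3 members whose groups did not overlap, against 61.2% of all genes. The members' median was 0.10, beside 0.01 over all genes. Sco2 was at percentile 99.2 of all genes by this change. Its value of 0.99 lay at the fold limit, and it was called without Ctrl replicate 2 or without Cu-Cys replicate 2, at 1.09 and 1.08. Sco1 rose by 0.24 ± 0.07 (log2, SE, edgeR adjusted p = 0.0123), a change that did not pass with library totals (0.17, edgeR adjusted p = 0.0684). Over 19 alternative settings Sco1 ran from 0.09 to 0.27 and Slc31a1 from 0.17 to 0.35, and neither passed 0.05 in all of them. In deposited TPM the Sco1 groups overlapped, at 9.92 to 10.81 in Ctrl and 10.34 to 11.41 in Cu-Cys. For Atp7a, Atox1 and Ccs, the genes called higher in Cadict, the 95% intervals of the log2 difference were -0.32 to 0.18, -0.15 to 0.29 and -0.23 to 0.20. Cox17 had 0.31 with an interval of 0.04 to 0.57 (edgeR adjusted p = 0.0548), with Cu-Cys replicate 1 inside the Ctrl range.

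Cadict was set against Cu-Cys to show how the nanodrug differed from copper with cystine. Glucose oxidase and GE11 enter this comparison together, and doses are not given, so the amount of copper may also differ. Their parts cannot be told apart. The comparisons share libraries, so their values are given side by side. Atp7a, Atox1, Ccs and Cox17 were called higher in Cadict than in Cu-Cys (4 of 10, against 18.6% of all genes), by 2.17, 2.51, 2.06 and 3.41 times. Atp7b, Sco1 and Sco2 were called lower (3 of 10, against 23.6%), by 2.27, 2.29 and 2.96 times. At the looser threshold 4 members were higher (40.3% of all genes) and 5 lower (45.6%), and the groups did not overlap for 9 of 10 (85% of all genes). Relative to Cu-Cys, Slc31a2 fell by 0.71 on the log2 scale and Slc31a1 fell by 0.13 (edgeR adjusted p = 0.0465, but 0.0547 with a replicate block, 0.519 with DESeq2 size factors and above 0.05 when any 1 library other than Cadict replicate 3 was left out), and Commd1 differed by -0.22 with a 95% interval of -0.45 to 0.01 (-0.37 without Cadict replicate 2, edgeR adjusted p = 0.000552, -0.22 with a replicate block, edgeR adjusted p = 0.0339, and -0.31 with no low-count filter, edgeR adjusted p = 0.00751). The members' median was -0.18, beside -0.10 over all genes. When each of the 9 libraries was left out in turn, the Atp7b call stayed only without Cu-Cys replicate 1, and without a Cadict replicate its edgeR adjusted p was 0.0017 to 0.0043. It was also lost with DESeq2 size factors (edgeR adjusted p = 0.00158) and in DESeq2's Wald test (adjusted p = 0.0152). The Ccs call was lost without Cadict replicate 2 or Cu-Cys replicate 1, and that of Atp7a without Cadict replicate 3. On the TPM scale Atp7a and Ccs turned to -0.05 and -0.13.

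**Figure D3:**
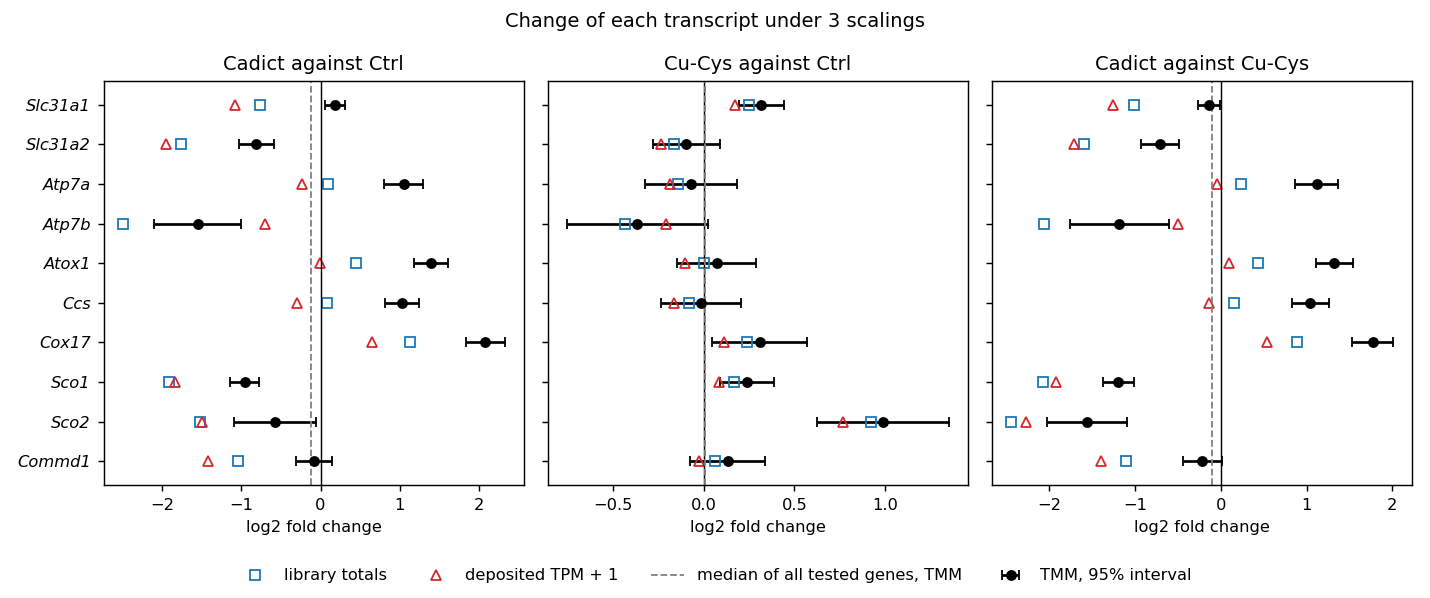
Log2 fold change (x axis) of each of the 10 transcripts (y axis) in the 3 comparisons. Black points with bars are the TMM-scaled edgeR values with 95% intervals, blue squares use library totals, red triangles use deposited TPM with 1 added, and the dashed line is the median of all tested genes. In both Cadict panels the squares and triangles lie mostly left of the black points, and Atp7a, Atox1, Ccs and Slc31a1 fall on or across 0 in at least 1 of those panels, while Cox17 stays to the right.

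Ratios of 2 transcripts inside a library do not depend on how libraries are scaled. They were taken from expected counts and also reflect transcript length. Only their change between groups is read here, as a description with no test. That change is not free of length either, since changes went with length over all genes. The genes of a pair differ in effective length, such as Cox17 with 119 and Sco1 with 3950 bases, or Slc31a1 with 3414 and Atp7a with 7860. The part of length in the ratios was not tested. Slc31a1 to Atp7a, importer to exporter, was 2.57 to 2.85 in Ctrl, 3.26 to 3.78 in Cu-Cys and 1.34 to 1.77 in Cadict libraries. The ratio thus went up with Cu-Cys and down with Cadict, by 0.39 and -0.84 on the log2 scale from the Ctrl mean, and no groups overlapped. Atox1 to Ccs was 2.66 to 3.05 in Ctrl, 2.96 to 3.11 in Cu-Cys and 3.38 to 3.81 in Cadict, which was above both other groups. Sco1 to Sco2 was 5.01 to 7.47 in Ctrl, 2.78 to 4.25 in Cu-Cys and 3.68 to 5.54 in Cadict, with overlap between Cadict and each other group and with the uncertainty of Sco2. Cox17 to Sco1, donor to acceptor, was 0.643 to 0.728 in Ctrl and 0.608 to 0.808 in Cu-Cys but 4.85 to 6.57 in Cadict, a shift of 3.03 on the log2 scale. This last ratio was chosen after the values had been seen.

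**Figure D4:**
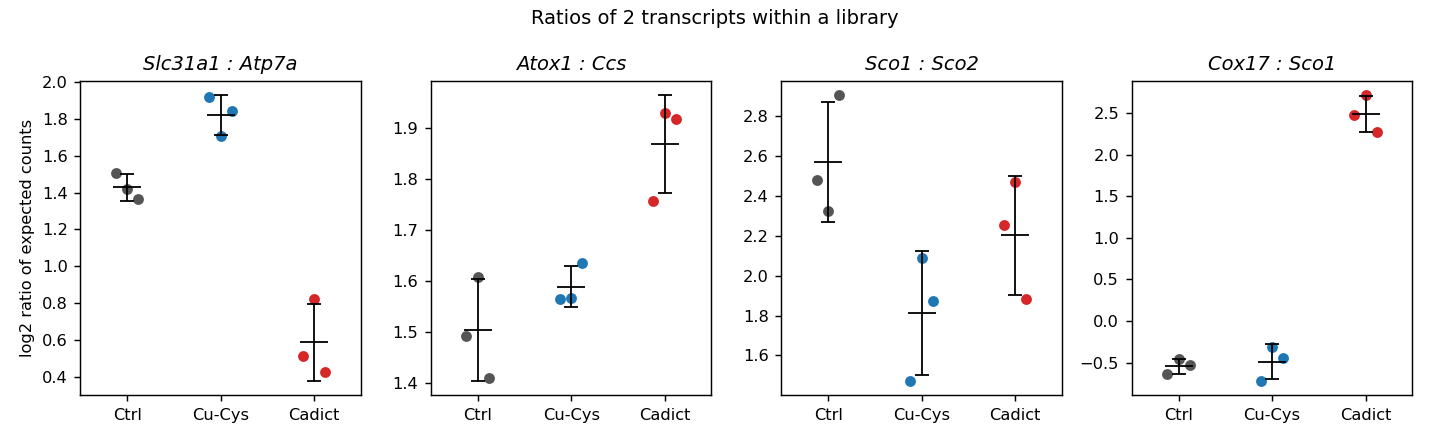
Log2 ratio of expected counts (y axis) for 4 pairs of transcripts within each library, by group (x axis), with the mean and SD of 3 replicates. Axes do not start at 0. The Cadict libraries lie apart below for Slc31a1 to Atp7a and apart above for Atox1 to Ccs and Cox17 to Sco1, whereas for Sco1 to Sco2 the Cadict points overlap both other groups.

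Per length, the chaperone transcripts Atox1 and Cox17 were the most abundant of the 10. Mean deposited TPM in Ctrl was 417.6 for Atox1, 237.3 for Cox17, 111.2 for Commd1, 41.1 for Slc31a1, 37.6 for Ccs, 25.3 for Slc31a2, 10.2 for Sco1, 7.74 for Sco2, 6.61 for Atp7a and 0.81 for Atp7b. In Ctrl only Sco2 and Atp7a, as neighbors in this order, overlapped in their ranges over 3 libraries. In Cu-Cys, Sco2 moved above Sco1, at 13.8 against 10.9 TPM, and no neighbors overlapped. Only the order within a group is read here, since the TPM scale moved the median of all genes by -1.001 in Cadict against Ctrl. In Cadict, Atox1 remained at the top with 417.6 TPM, Cox17 followed at 373.9, and Commd1 kept rank 3 at 41.1. Ccs stood above Slc31a1 there, at 30.5 against 19.1 TPM, the reverse of their order in Ctrl. Slc31a2 and Atp7a overlapped at 5.81 and 5.64 TPM, as did Sco1 and Sco2 at 2.14 and 2.11 TPM, and Atp7b was last at 0.11. The lengths of Atox1 and Cox17 are short enough that their TPM depends strongly on the effective length used.

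The proteins that these carriers serve were read from 6 lists of 62 other copper genes, of which 59 were in the table and 53 were tested. In Cadict against Ctrl, 15 of the 53 were called higher (20.7% of all genes) and 10 lower (27.1%). Their median log2 fold change was 0.39, beside -0.13 over all genes. In Cu-Cys against Ctrl, 3 were called higher (0.167% of all genes) and 1 lower (1.47%). Copper buffering genes moved the most. The metallothionein genes Mt1 and Mt2, whose proteins bind copper and zinc, and Slc30a1, a zinc exporter gene and target of MTF1, were called higher under both treatments. Mt1 had 1654 to 1855 expected counts in Ctrl, 5121 to 5286 in Cu-Cys and 13900 to 17934 in Cadict. The Cadict log2 changes were 4.11, 4.38 and 4.29 for Mt1, Mt2 and Slc30a1, and the Cu-Cys changes were 1.64, 1.29 and 1.28. With Mtf1 at 1.13, a gene outside the naming rule, all 4 tested genes of that list were called higher in Cadict, with a median of 4.20, and Mt3 was not tested. In deposited TPM, however, Mtf1 was not higher, at 7.13 to 7.76 in Ctrl and 5.49 to 7.59 in Cadict.

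Among clients of the chaperones, Sod1, which receives copper from CCS, rose from 75.6 ± 3.01 CPM in Ctrl to 98.8 ± 4.13 in Cu-Cys and 292.7 ± 58.4 in Cadict (SD, n = 3), a log2 change of 1.95 ± 0.10 in Cadict (SE, edgeR adjusted p = 3.72e-11). Secreted copper enzymes obtain copper through the ATPases in the Golgi. Among them the extracellular dismutase Sod3 changed by -1.65 on the log2 scale in Cadict and Loxl1, which acts on elastin, by -1.71. Ceruloplasmin (Cp), picked after its values were seen, changed by 0.73 after TMM scaling, short of the fold limit. In deposited TPM, Cp was lower in Cadict, at 0.91 to 0.95 against 1.22 to 1.63 in Ctrl. All 4 lysyl oxidase-like genes, Loxl1 and, outside the naming rule, Loxl2 to Loxl4, were called lower in Cadict, and Loxl1 was the member of all 6 lists called lower in Cu-Cys, at -1.15 ± 0.07 (SE, edgeR adjusted p = 4.56e-08). The summed fibroblast genes given above, mostly Col3a1, were lower in the same groups, and their part in this was not tested. Dcn, of that list, overlapped, with 0.59 to 1 TPM in Ctrl, 0.62 to 0.76 in Cu-Cys and 0.48 to 0.72 in Cadict. Of the 9 tested copper enzyme genes, 1 was called higher and 5 lower in Cadict (20.7% and 27.1% of all genes), with a median of -1.11. Hephl1, Lox, Dbh, Tyr and Aoc3 were in the table but below the filter, and Heph, Aoc1 and Moxd1 were not analysed here.

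Of 9 other genes for mitochondrial copper delivery, 2 were called higher and 4 lower in Cadict (20.7% and 27.1% of all genes, median -0.56), and 0 were called in Cu-Cys (edgeR, 4 with an unadjusted p under 0.05). Slc25a3, for the carrier of phosphate and copper into the matrix, rose by 1.41 ± 0.06 on the log2 scale after TMM scaling but by 0.09 on the TPM scale (limma adjusted p = 0.111), and the assembly factor gene Coa5 changed by -0.56. Cox11, whose protein receives copper from COX17 as SCO1 does, went from 180 to 228 expected counts in Ctrl to 14.3 to 19.7 in Cadict, a log2 change of -2.61 ± 0.20 (SE, edgeR adjusted p = 4.95e-09). Cox11 was below the abundance set for naming genes and was picked after its values were seen. Of 15 genes for other COMMD proteins and the complex they form, 5 were called higher in Cadict (20.7% of all genes) and 1 lower (27.1%), with a median of 0.71. The highest by the naming rule were Commd9 at 2.22, Commd4 at 1.76 and Vps26c at 1.42, of which Vps26c had 0.11 on the TPM scale (limma adjusted p = 0.154). The gene called lower was Commd5, also picked after its values were seen, with 153 to 172 expected counts in Ctrl and 4 to 6 in Cadict.

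Of 6 metal reductase and carrier genes, Steap1, for a metalloreductase, was the gene called higher in Cadict, from 24.6 ± 1.06 to 116.3 ± 8.46 CPM (SD, n = 3), and 0 were called lower (20.7% and 27.1% of all genes, median -0.09). Steap2 fell by 0.77 on the log2 scale. Slc11a2, for the iron importer DMT1, had 0.52 after TMM scaling but -0.43 with library totals. Among 10 genes for interactors and trafficking factors of the copper transporters, 2 were called higher in Cadict and 0 lower (20.7% and 27.1% of all genes, median 0.48). Clu, for the extracellular chaperone clusterin, which binds the copper ATPases, rose by 2.26, although it fell in Cu-Cys by 0.43. Sp1, for a factor that binds the GC box, had 1.24, and Vps35, of the retromer, had 0.92, but both lay at or under 0 on the TPM scale, at -0.07 and -0.38. Set against Cu-Cys, Cadict had 15 of the 53 list genes called higher (18.6% of all genes) and 6 called lower (23.6%).

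**Figure D5:**
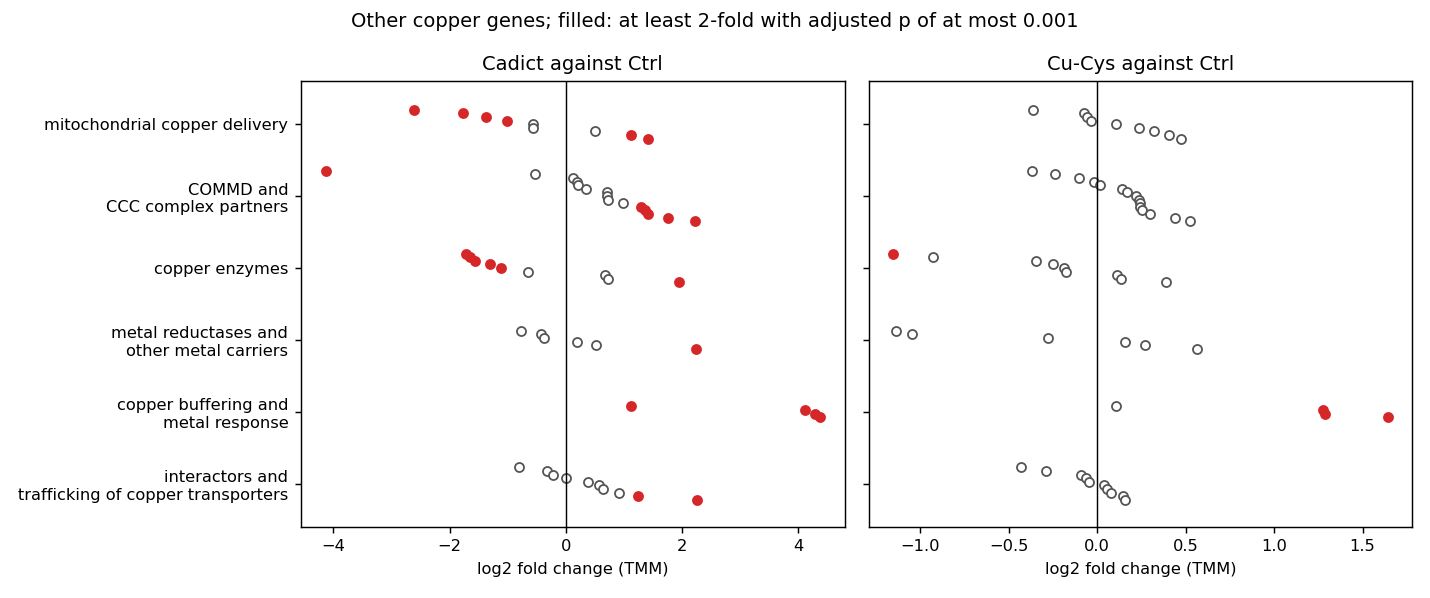
Log2 fold change after TMM scaling (x axis) of the 53 tested genes of 6 other copper lists (y axis), for Cadict and for Cu-Cys against Ctrl. Each point is a gene, and filled points are called. In both panels Mt1, Mt2 and Slc30a1 lie apart at the right in the buffering list, at 4.11 to 4.38 and 1.28 to 1.64, and the other lists spread on both sides of 0.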

How the data were processed

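Poly(A)-selected RNA of 9 MC38 libraries was sequenced. The labels name a column kit and DNA nanoball sequencing, whereas the series' design text names TRIzol and an Illumina instrument. The authors deposited a table with an expected count, FPKM, TPM and a signal (counts divided by a size factor) per gene and library. The submitters' processing notes name HISAT2 2.1.0, Bowtie2 2.3.4.3 and RSEM 1.3.1 and the builds GRCm39 and GRCh38.p13, and use of strand is not given in the sources used here. Columns CC were taken as Cu-Cys by initials, and CCGE as Cadict, inferred from its components. The authors' group averages were not used.

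From the expected counts, rounded to whole numbers, edgeR 4.0.16 (in R 4.3.3) gave the main results: filterByExpr, TMM, and a quasi-likelihood fit of 3 groups, with Benjamini-Hochberg adjustment over 11949 genes. The study's methods give the limits (2-fold, adjusted p 0.001). The depth, 17905771 to 18293056 counts, puts the limit under which a count of 0 cannot see (3 counts) at 0.13 to 0.261 CPM, for counting error only. Alternatives used DESeq2 1.42.0 size factors or Wald test, library totals, other filters, a replicate block, the looser threshold, limma 3.58.1 on log2 of the deposited units (pseudocount 1 or 0.1), and each library left out. The procedure was tested on simulated data.

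The 10 members, the 6 lists and the tests were chosen with earlier results of these data known. Named are all members, the 3 genes of each list with the largest Cadict change at an average of at least 10 CPM, any list gene called in Cu-Cys, and, for likeness, 3 genes each for the 2 members that changed most at that abundance. Cp, Mtf1, Loxl2 to Loxl4, Cox11 and Commd5 are named outside this rule, after their values were seen. Shared sequence was counted in 50-base stretches of GENCODE M21 (GRCm38) transcripts, and promoters came from RefSeq GRCm38.p6, which held 8 of the 10 members (not Ccs and Cox17).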

Additional observations from a re-analysis of the deposited data

How the results depend on the processing

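Scaling was the choice that moved most results. In Cadict against Ctrl, 43.3% of all calls were higher with TMM, 48.3% with DESeq2 size factors, 11.9% with library totals, 11% with FPKM, 5.67% with TPM + 1 and 6.52% with TPM + 0.1. In Cadict against Cu-Cys these shares were 44.1%, 48.9%, 10.8%, 9.5%, 5.84% and 6.56%. The members' median log2 fold change in Cadict against Ctrl was 0.168 with DESeq2 size factors, -0.905 with library totals, 0.121 with at least 10 counts in every library, -0.031 with no low-count filter, 0.13 in the DESeq2 Wald test, -0.595 on FPKM, -0.893 on TPM + 1, -1.279 on TPM + 0.1 and 0.133 on size-factor counts. In Cadict against Cu-Cys it was -0.083 with DESeq2 size factors, -1.06 with library totals, -0.65 on FPKM, -0.876 on TPM + 1 and -1.354 on TPM + 0.1. In Cu-Cys against Ctrl it was -0.063 on TPM + 1 and -0.064 on TPM + 0.1. Leaving out each library gave 0.003 to 0.089, -0.223 to -0.137 and 0.067 to 0.143 for Cadict against Ctrl, for Cadict against Cu-Cys, and for Cu-Cys against Ctrl.

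Members called in Cadict against Ctrl numbered 5, but 3 with at least 10 counts in every library, where Atp7b was not tested, Atp7a and Ccs were not called and Sco1 was called lower, and 9 at an adjusted p of 0.05 with no fold limit. With library totals 1 was higher (Cox17) and 5 lower, and on TPM + 1 these were 0 and 5. In Cu-Cys against Ctrl, 1 member (Sco2) was called with DESeq2 size factors and 3 at the looser threshold. In Cadict against Cu-Cys, 4 were called higher and 3 lower in the main fit. On FPKM these were 0 and 4, the 4 being Slc31a2, Sco1, Sco2 and Commd1. With library totals they were 0 and 6, on TPM + 1 0 and 5, and on TPM + 0.1 0 and 6. The other copper genes called at the looser threshold numbered 49 and 30 for Cadict and Cu-Cys against Ctrl, and 49 for Cadict against Cu-Cys. Leaving out 1 library gave 4 to 5, 0 to 1 and 5 to 6 members called, and 24 to 26, 4 and 19 to 21 other copper genes, in Cadict and Cu-Cys against Ctrl and in Cadict against Cu-Cys, in that order. The ratio of Atox1 to Ccs in Cu-Cys against Ctrl ran from 0.038 to 0.137 (log2).

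In Cadict against Ctrl the direction turned with library totals, FPKM, TPM + 1 and TPM + 0.1, in that order, for Slc31a1 (-0.77, -0.74, -1.08 and -1.12), Slc11a2 (-0.43, -0.30, -0.64 and -0.66) and Vps35 (-0.028, -0.038, -0.38 and -0.38). With TPM + 1 and TPM + 0.1 it turned for Atp7a (-0.23 and -0.27), Atox1 (-0.0032 in both), Ccs (-0.29 and -0.30) and Sp1 (-0.066 and -0.067). In Cadict against Cu-Cys it turned on those 2 scales for Atp7a (-0.047 and -0.061) and Ccs (-0.13 and -0.14). Genes named outside the naming rule, such as Cp and Mtf1, were not followed through these settings. The shift of the median of all genes under these scalings is given with the library composition.

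Replicate numbers were not treated as pairs, since the residuals of same-numbered libraries correlated from -0.102 to 0.1 over 11219 genes. With the replicate block, the numbers of members called were 5 and 0 for Cadict and Cu-Cys against Ctrl, and 6 for Cadict against Cu-Cys, where Atp7b was no longer called. Depth limits Atp7b, with 8 to 11 counts in Cadict libraries, and Sco2.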

Other observations

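The genes whose level followed Cox17 and Atox1 most closely were sought among 8550 tested genes averaging at least 10 CPM, by Pearson's r of log2 CPM over the 9 libraries. Nearest to Cox17 were Ier3ip1 at 0.9972, Rpl31, for a ribosomal protein, at 0.9962, and Cox6c, for a subunit of cytochrome c oxidase, at 0.9956. Nearest to Atox1 were Serf2 at 0.9989, Rpl22, for a ribosomal protein, at 0.9975, and Micos10, for a subunit of the complex that shapes mitochondrial cristae, at 0.9965. The 9 points are 3 groups of 3 that share a treatment and a library composition, so these values are descriptions.

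Several members share sequence with other annotated transcripts. Of their 50-base stretches, Slc31a1, Slc31a2, Atp7a, Atp7b, Atox1 and Ccs shared 0, while Sco1 shared 1.97%, Cox17 3.8%, Commd1 4.15% and Sco2 64.6% on the same strand. Commd1 and Sco2 shared 5.35% and 62.7% on the opposite strand, as did Mt2, of the buffering list, with 45.8%. Such stretches were not counted for Cox11 and Commd5.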
